A study of Mus musculus with 6 samples.

Results

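The genes described here are 7 members of the TALE homeobox family, Meis1, Meis2, Meis3, Pknox1, Pbx2, Pbx3 and Tgif1, in mouse embryonic stem cells with Tip5 knocked down. They are 7 of the 16593 genes named on the array, read by 15 of its 25697 probes, and were chosen by symbol with their knockdown and control levels on these same arrays known. The direction and size of their differences between the groups are therefore given as a description, with no test. Of the 15 probes, 12 were bright enough to enter the fit over all probes, and they stand for 6 of the 7 genes. Both Meis3 probes and 1 of the 3 Pbx3 probes did not enter it.

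The knockdown cells were E14 embryonic stem cells, a mouse line, electroporated with a combination of shRNA vectors against Tip5, the protein encoded by Baz2a, and labelled Tip5-knockdown (3 arrays). The others were E14 cells given a non-specific shRNA, with the genotype label wild type (3 arrays). Cells of both groups were put under antibiotic selection 72 hours after transfection for 6 days, and RNA was taken at passage 3. They grew on gelatin in medium with 20% serum and 1000 U/ml of LIF, the cytokine that keeps such cells undifferentiated. The labels speak of each transfection and name no clone. They do not say how far apart the cultures were, so the spread between arrays may be technical in part.

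TALE proteins carry a homeodomain with an extended loop, by which they bind DNA together with other homeodomain proteins. MEIS and PKNOX (PREP) proteins bind PBX proteins, which helps to hold PBX in the nucleus, and PBX in turn binds DNA with HOX proteins, sharpening the sites that HOX proteins read. TGIF proteins act mostly as repressors, on Smad proteins downstream of TGF-beta signals and on retinoid receptor sites. In embryonic stem cells Meis and Hox genes are known to be induced when cells are differentiated with retinoic acid, and Meis1 is known as a partner of Hoxa9 in leukaemia.

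The promoter windows of Meis1 and Meis2, whose levels moved together on these arrays, are shown with that of their paralog Meis3, which stayed near background. Each is the 250 bases before the RefSeq start of the gene (GRCm38.p6), 5′ to 3′ on the gene's strand, with CpG dinucleotides in capitals. The Meis1 window is chr11:19018970-19019219 on the minus strand, the Meis2 window chr2:116064620-116064869 on the minus strand, and the Meis3 window chr7:16175145-16175394 on the plus strand.
Meis1: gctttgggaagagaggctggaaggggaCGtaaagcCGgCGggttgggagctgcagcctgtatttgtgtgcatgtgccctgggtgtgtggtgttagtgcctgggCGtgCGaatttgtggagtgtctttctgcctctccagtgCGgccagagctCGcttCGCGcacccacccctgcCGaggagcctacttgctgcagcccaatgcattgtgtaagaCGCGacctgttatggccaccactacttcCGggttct
Meis2: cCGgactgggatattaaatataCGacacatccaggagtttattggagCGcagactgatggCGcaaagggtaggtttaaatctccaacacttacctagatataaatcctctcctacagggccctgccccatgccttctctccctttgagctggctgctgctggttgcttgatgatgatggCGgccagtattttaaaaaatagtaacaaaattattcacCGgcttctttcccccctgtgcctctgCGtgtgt
Meis3: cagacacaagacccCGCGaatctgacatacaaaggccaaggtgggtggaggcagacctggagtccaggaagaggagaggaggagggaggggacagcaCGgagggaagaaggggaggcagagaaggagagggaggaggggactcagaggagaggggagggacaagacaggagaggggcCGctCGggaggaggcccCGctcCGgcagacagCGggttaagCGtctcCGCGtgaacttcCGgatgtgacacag
The windows held 13 CpGs for Meis1, 7 for Meis2 and 12 for Meis3, where the median over 32851 windows of the same length was 6. Their GC content was 59.6% for Meis1, 47.6% for Meis2 and 63.6% for Meis3, against a median of 52.4%. The Pbx2 window was the richest of the members', with 27 CpGs and 77.6% GC. Among the 7 genes, 5 matched the RefSeq table, with 9 windows, of which Tgif1 had 5, and Pbx3 and Pknox1 are named only. These windows were searched on both strands for TGACAG, a core read by MEIS and TGIF, for TGATNNAT, read by PBX with HOX, and for AGGTCA, a core read by nuclear receptors. None of the motifs was in the windows of Meis1, Meis2, Meis3 or Pbx2. One of the Tgif1 windows held TGATNNAT 134 bases and AGGTCA 237 bases before the start, without overlap. Over all windows, 15.9% held TGACAG, 7.68% held TGATNNAT and 14.0% held AGGTCA. The searches describe these letters alone, and the RefSeq start need not be the one used in these cells.

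The targeted gene was read by 1 probe. Baz2a had normalized log2 levels of 5.21, 4.74 and 5.13 in knockdown replicates 1, 2 and 3, against 6.42, 7.51 and 5.99 in control replicates 1, 2 and 3. Every knockdown array was below every control array, by a mean of -1.62 (SE 0.39), which is 32.6% of the control level. The size depended on the setting, from -0.57 with no background correction and -1.04 without the replicate 2 pair to -1.99 with replicates 1 and 2 only. The limma adjusted p was 0.203, and 0.0810 with the replicate number as a block. By exact permutation of the 6 arrays the two-sided p was 0.1, and 3 against 3 arrays can give none smaller. The probe was above background on 2 of 3 knockdown arrays and 3 of 3 control arrays.

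As facts of the whole series, detected probes numbered 12473 to 13450 on knockdown arrays and 12721 to 12923 on control arrays. In both groups replicate 3 was the brightest array, with a median signal of 218.8 in the knockdown and 184.5 in controls, where the other arrays had 126.5 and 129.2 in the knockdown and 125.1 and 133.5 in controls. All 10 embryonic stem cell markers were detected on each array, with a summed normalized intensity of 71539.7 to 74907 in knockdown and 73303 to 74287 in control arrays. By the probe of highest mean level of each gene, 7 of 12 neural markers, Sox1 and Pax6 among them, were above background nowhere, as were 5 of 9 mesoderm markers, Mixl1 and Eomes among them, and 4 of 9 fibroblast markers (Col3a1, Postn, Dcn and Lum). Over the 9015 genes tested, 7 passed an adjusted p under 0.05 with 2-group means in limma, 0 higher and 7 lower. The split was 1 higher and 1 lower with no background correction, and 4 higher and 19 lower with a background offset of 50. With the replicate block 176 passed, 66 higher and 110 lower.

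Meis1 and Meis2 were the members with higher levels in the knockdown on each array than on any control array. Meis1 had normalized log2 levels of 7.56, 7.08 and 8.79 in knockdown replicates 1, 2 and 3, against 5.43, 5.82 and 7.04 in control replicates 1, 2 and 3. The groups lay apart by 0.03, the gap between knockdown replicate 2 and control replicate 3. The mean was 7.81 ± 0.89 in the knockdown and 6.10 ± 0.84 in controls (SD, n = 3 each), a log2 difference of 1.71 (SE 0.55), or 3.27-fold. On the deposited linear scale, before any background was removed, the Meis1 probe read 226.8, 192.8 and 1036 in the knockdown, against 140.5, 139.3 and 323.5 in controls. Its detection p-values were 0 on the 3 knockdown arrays and on control replicate 3, and 0.015 and 0.0050 on control replicates 1 and 2, so that the control level of Meis1 was close to background in those cultures.

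Meis2, a close paralog of Meis1 that is also known from limb, hindbrain and forebrain development, had levels of 7.56, 7.06 and 9.39 in knockdown replicates 1, 2 and 3, against 6.19, 5.58 and 6.99 in control replicates 1, 2 and 3. The gap between the groups was 0.07, again between knockdown replicate 2 and control replicate 3. Meis2 averaged 8.01 ± 1.23 in the knockdown and 6.25 ± 0.71 in controls (SD, n = 3 each), a log2 difference of 1.75 (SE 0.63), or 3.37-fold. Its deposited signals were 227.3, 192.1 and 1481 in the knockdown, against 161.8, 134.1 and 317.8 in controls. The Meis2 detection p-values were 0.0013 and 0.0125 on control replicates 1 and 2 and 0 on the other arrays. Control replicate 2 was therefore close to background for Meis2 too. In each group replicate 3 was the highest array for both genes. Compared with the mean of replicates 1 and 2, Meis1 was higher by 1.48 in the knockdown and by 1.42 in controls, and Meis2 by 2.08 in the knockdown and by 1.11 in controls. In RNA from whole cultures, more cells that express a gene and more of its RNA per cell cannot be told apart.

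Within a replicate number, the knockdown minus control difference of Meis1 was 2.13, 1.25 and 1.75 in replicates 1, 2 and 3. For Meis2 it was 1.37, 1.49 and 2.40. Each difference was positive, which non-overlapping groups already fix. Counted from the most positive mean difference, Meis2 stood 9th and Meis1 10th of the 9015 genes tested. These places are a description, since the members were chosen with this contrast known. The median over all genes was 0.02 and the middle of the distribution lay between -0.19 and 0.22.

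**Figure D1:**
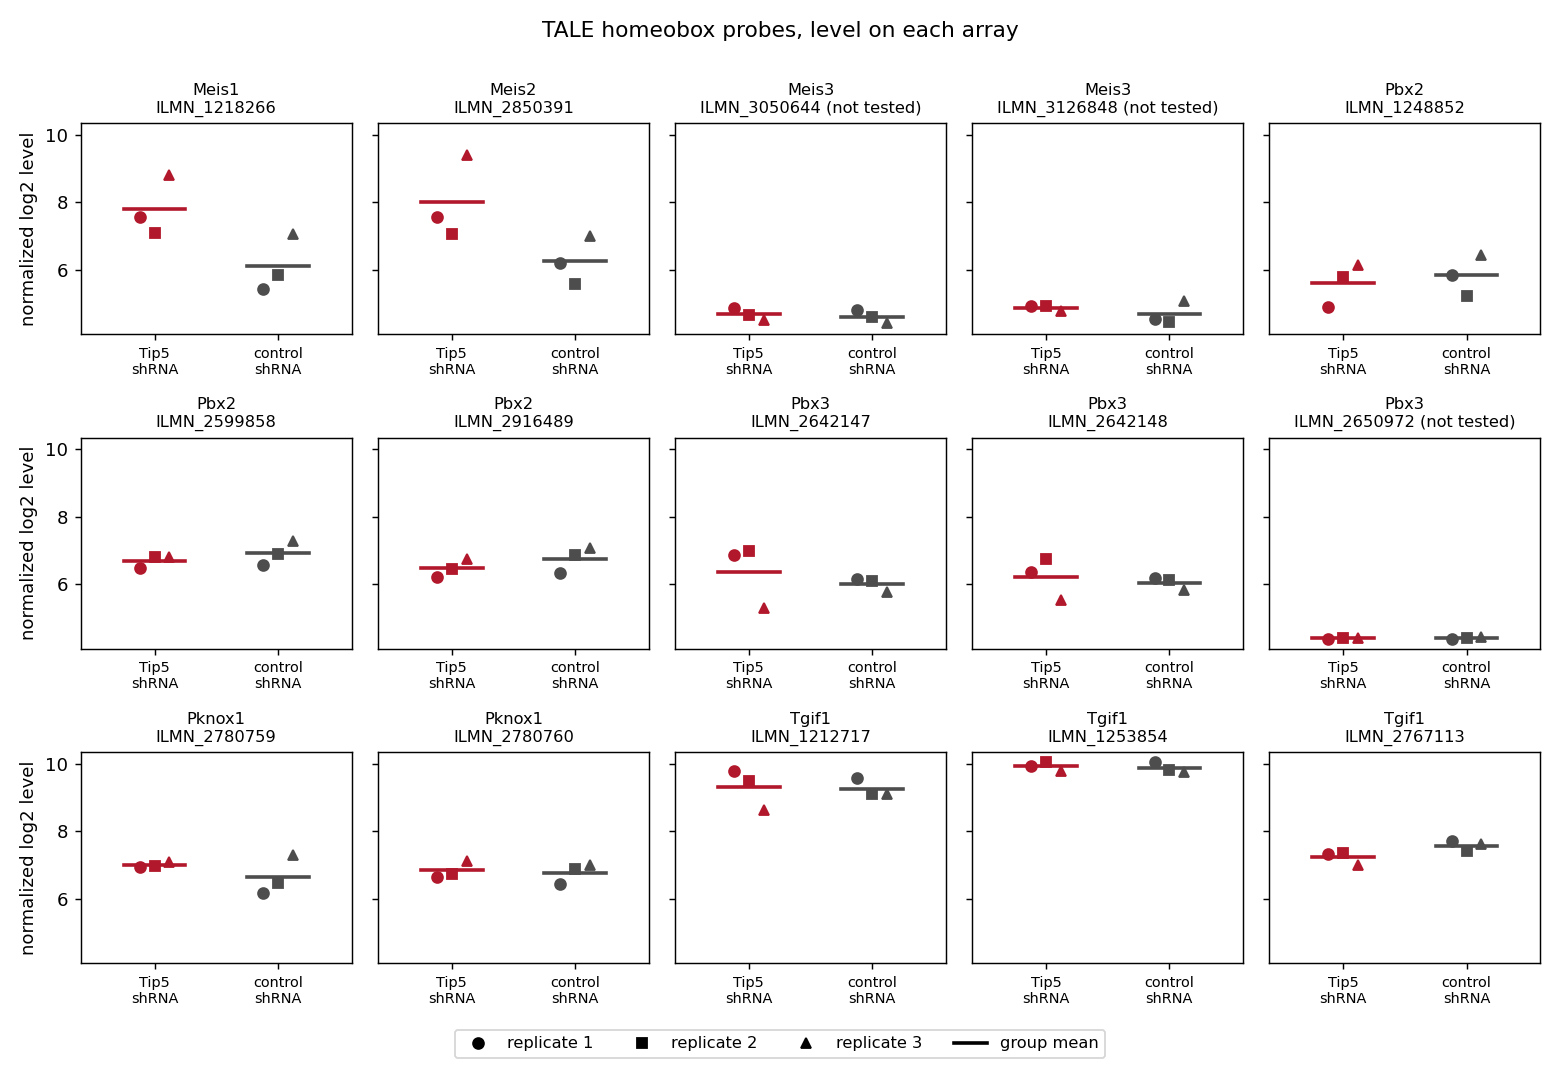
Normalized log2 level of all 15 member probes on each array, knockdown at left and control at right of each panel, with a symbol for each replicate and a bar for the group mean. Meis1 and Meis2 on the knockdown arrays sit between 7.06 and 9.39, above their controls at 5.43 to 7.04, and the replicate 3 array is the highest of each group.

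The summed normalized intensity of the endoderm markers was also highest on the replicate 3 array of each group. It was 3282, 3081 and 18684 in knockdown replicates 1, 2 and 3, against 4680.0, 5329.6 and 6186 in control replicates 1, 2 and 3. Sparc and Lama1, the brightest by mean level, weigh most in this sum. By their brightest probes Gata6, Sox17, Dab2 and Col4a1 were also highest on the replicate 3 array of each group. Gata6 read 4.90, 5.13 and 9.84 in knockdown replicates 1, 2 and 3, against 6.42, 5.70 and 6.93 in controls. Dab2 read 7.50, 6.52 and 11.08 in the knockdown, against 7.68, 6.67 and 8.79 in controls. Sox17 was detected on 1 array of each group. Other markers departed from the sum, Lama1 in controls and Gata4 in the knockdown among them. In control replicates 1, 2 and 3 Lama1 read 10.01, 10.66 and 10.52, highest in replicate 2. Gata4, detected on 1 knockdown array only, read 5.10, 4.85 and 5.03 in the knockdown, against 4.42, 4.45 and 4.52 in controls. On knockdown arrays 4 to 9 of the 10 endoderm markers were detected and on control arrays 5 to 6, with Afp on no array. In knockdown replicates 1 and 2 the endoderm sum was below that of every control array. With replicates 1 and 2 only, the Meis1 difference was 1.69 and the Meis2 difference 1.43. Without the knockdown replicate 3 array alone these differences were 1.22 and 1.06. The part of the endoderm markers in the Meis1 and Meis2 differences was not tested.

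Neural markers summed to 742, 585 and 825 in knockdown replicates 1, 2 and 3, against 581, 519 and 636 in control replicates 1, 2 and 3, with 2 to 4 of 12 detected on knockdown arrays and 2 on each control array. Nes, which encodes the intermediate filament nestin of neural progenitors, read 8.001, 7.75 and 8.31 in the knockdown, against 7.43, 6.61 and 7.32 in controls. By this probe, the brighter of the Nes probes, every knockdown array was above every control array, as in 8.96% of all genes tested. The difference was 0.90 (SE 0.27, limma adjusted p = 0.296, and 0.0571 with the block). By the other Nes probe the groups overlapped, with a difference of 0.25 (SE 0.29, limma adjusted p = 0.882, and 0.575 with the block). Map2, the other neural marker tested, differed by -0.07 (SE 0.28, limma adjusted p = 0.977). Nes and Map2 were the brightest of the 12 neural markers and weigh most in the sum. Msx1, a homeobox gene of the neural plate border, did not enter the fit. It was detected on 2 of 3 knockdown arrays and 0 of 3 control arrays. The part of the neural markers in the Meis1 and Meis2 differences was not tested.

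Meis3, the third MEIS paralog, was not detected on knockdown arrays. Its 2 probes read 4.85, 4.65 and 4.52, and 4.91, 4.93 and 4.76, in knockdown replicates 1, 2 and 3. In controls they read 4.80, 4.59 and 4.41, and 4.52, 4.43 and 5.07, with the last value, in control replicate 3, the only one above background. At this sensitivity no Meis3 difference was measurable.

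Pknox1 encodes PREP1, which binds PBX much as MEIS proteins do. Its probe of higher mean level, ILMN_2780759, read 6.92, 6.97 and 7.08 in knockdown replicates 1, 2 and 3, against 6.16, 6.46 and 7.28 in control replicates 1, 2 and 3. The difference was 0.36 (SE 0.30) and the groups overlapped, since control replicate 3 was the highest of the 6 arrays. The other Pknox1 probe gave 0.07 (SE 0.23). The knockdown arrays of ILMN_2780759 lay close together, with an SD of 0.08 against 0.58 in controls.

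Pbx2, a PBX gene expressed in many tissues, was read by 3 probes, all slightly lower on average in the knockdown. The probe that stands for it, ILMN_2599858, read 6.47, 6.80 and 6.80 in knockdown replicates 1, 2 and 3, against 6.57, 6.88 and 7.28 in control replicates 1, 2 and 3. The groups overlapped and the difference was -0.22 (SE 0.23). The other Pbx2 probes gave -0.28 (SE 0.25) and -0.23 (SE 0.40), the last from a dim probe detected on 2 of 3 knockdown arrays.

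Pbx3, which partners HOX proteins like the other PBX genes, differed between replicate numbers. Its probe ILMN_2642147 read 6.85, 6.97 and 5.30 in knockdown replicates 1, 2 and 3, against 6.14, 6.08 and 5.76 in control replicates 1, 2 and 3. Knockdown replicates 1 and 2 were the highest arrays and knockdown replicate 3 the lowest. The mean difference was 0.37 (SE 0.44), from 0.70 and 0.88 in replicates 1 and 2 and -0.46 in replicate 3. The second Pbx3 probe had the same signs, at 0.19, 0.64 and -0.28. With replicates 1 and 2 only, ILMN_2642147 differed by 0.79. The third Pbx3 probe, ILMN_2650972, was detected on no array. In both groups Pbx3 was lower in replicate 3 than in replicates 1 and 2, by -1.61 in the knockdown and -0.35 in controls, where Meis1 and Meis2 were higher.

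Tgif1, the Smad and retinoid corepressor, was detected on all arrays by each of its 3 probes. Its probe of highest mean level, ILMN_1253854, read 9.93, 10.06 and 9.79 in knockdown replicates 1, 2 and 3, against 10.04, 9.80 and 9.74 in control replicates 1, 2 and 3. The groups overlapped and the difference was 0.07 (SE 0.18), against 0.04 (SE 0.33) for ILMN_1212717. The third probe, ILMN_2767113, read 7.31, 7.35 and 6.997 in the knockdown, against 7.69, 7.41 and 7.61 in controls. These groups did not overlap, with the knockdown lower, where 17.0% of all genes tested did not overlap in one direction or the other. The difference was -0.35 (SE 0.19), so the Tgif1 probes did not all point one way.

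**Figure D2:**
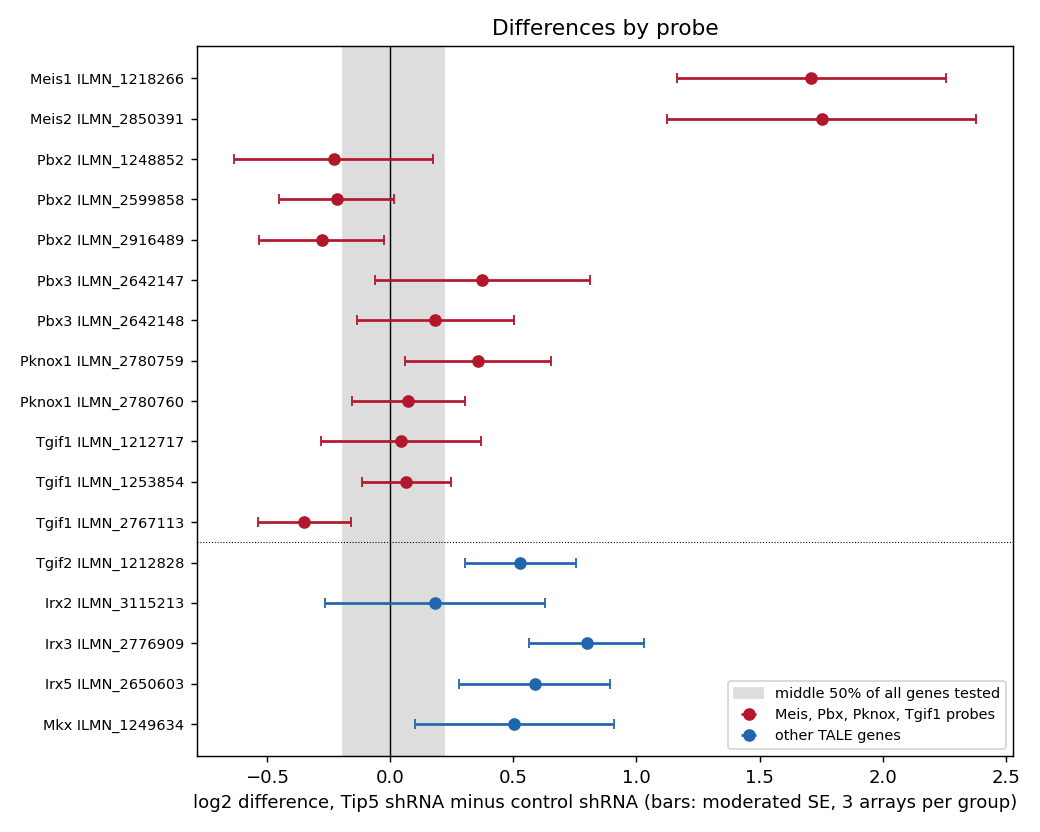
Log2 difference, knockdown minus control, of the 12 member probes and of 1 probe for each of 5 other TALE genes that entered the fit. Points are differences, bars the moderated SE over 3 arrays per group, and the grey band is the middle of all 9015 genes (-0.19 to 0.22). Meis1 and Meis2 lie at 1.71 and 1.75 and the other member probes between -0.35 and 0.37.

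With 2-group means in limma, 0 of the 6 members tested passed an adjusted p under 0.05 (2 at an unadjusted p under 0.05), where 0.0776% of all genes passed and 11.2% had an unadjusted p under 0.05. With the replicate block, 2 passed, Meis1 and Meis2, both higher, where 1.95% of all genes passed and 0.732% passed with a higher level. At an unadjusted p under 0.05 the block had 2 of the 6 members and 22.8% of all genes, the share against which the unadjusted counts with the block in the gene lists are to be read. In 2 members, Meis1 and Meis2, the groups did not overlap with the knockdown higher, as in 8.96% of all genes (17.0% in either direction). Since this contrast chose the members, these counts carry no weight of their own. Without the replicate 1 pair the block called Meis2 alone of the members (0.477% of all genes), and without the replicate 2 pair none of them (0.0998%), while without the replicate 3 pair it called both Meis1 and Meis2 (5.60%). Array weights (9.96%) and replicate 3 as a batch term (4.41%) also called both. With replicates 1 and 2 only and 2-group means, Meis1 and Pbx3 passed (4.80%). The median difference over the 6 members tested was 0.37, with 5 positive and 1 negative by the probe that stands for each. Of all genes tested 52.8% were above 0, the share against which the signs in the gene lists are also to be read.

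**Figure D3:**
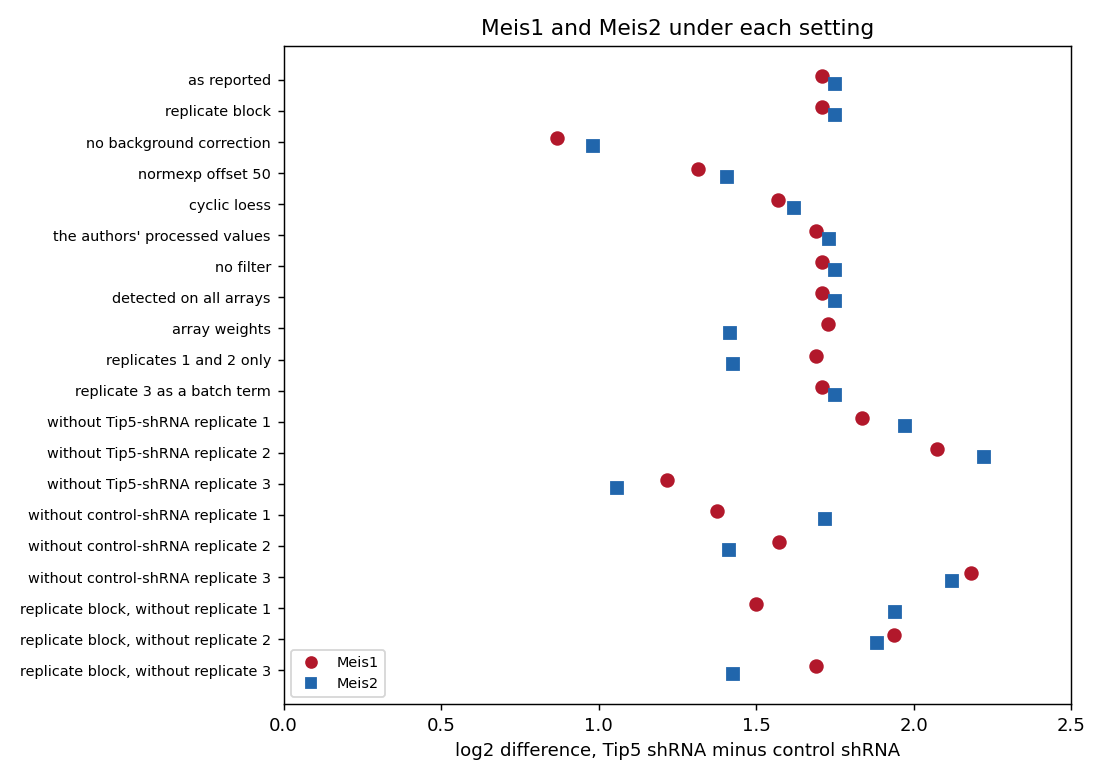
Log2 difference, knockdown minus control, of Meis1 (circles) and Meis2 (squares) as reported and under each of 19 other settings. All values are above 0, from 0.87 for Meis1 and 0.98 for Meis2 with no background correction to 2.18 for Meis1 and 2.22 for Meis2 with 1 array left out. Settings that left out arrays could not turn the sign, since the groups did not overlap.

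Of 13 further TALE genes, 10 had a probe in the file and 5 of these were tested. Tgif2, Irx2, Irx3, Irx5 and Mkx all had positive differences, with a median of 0.53, where 52.8% of all genes tested were above 0. None passed the test: in limma 0 of 5 had an adjusted p under 0.05 with 2-group means (2 at an unadjusted p under 0.05) and 0 of 5 with the replicate block (3 at an unadjusted p under 0.05).

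Irx3, an Iroquois gene known from neural patterning, had levels of 6.12, 6.55 and 6.31 in knockdown replicates 1, 2 and 3, against 5.71, 5.74 and 5.14 in control replicates 1, 2 and 3. Every knockdown array was above every control array, as in 8.96% of all genes tested. The Irx3 difference was 0.80 (SE 0.23, limma adjusted p = 0.272, and 0.0811 with the block). Irx5, its neighbour in the Iroquois cluster, differed by 0.59 (SE 0.31, limma adjusted p = 0.592) and was detected on 3 of 3 knockdown arrays and 1 of 3 control arrays. The knockdown arrays alone brought Irx5 through the detection filter, which favoured such a difference. Its p-value and its place among the positive differences are therefore not free of the filter.

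Tgif2, the paralog of Tgif1, read 7.22, 7.07 and 6.65 in knockdown replicates 1, 2 and 3, against 6.67, 6.20 and 6.49 in control replicates 1, 2 and 3. Knockdown replicate 3 lay just below control replicate 1, so the Tgif2 groups overlapped. Its difference was 0.53 (SE 0.23, limma adjusted p = 0.473). Mkx, mohawk, a tendon regulator, differed by 0.50 (SE 0.40, limma adjusted p = 0.793), and one Irx2 probe by 0.18 (SE 0.45, limma adjusted p = 0.954), with its 3 replicate numbers at -0.22, -0.85 and 1.62. The second Irx2 probe and the probes of Irx1, Irx4, Irx6 and Tgif2lx1 were detected on no array. Of the 5 Pknox2 probes, 3 were detected on no array and the other 2 on 1 array each. Pbx4 and Tgif2lx2 were not analysed here.

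**Figure D4:**
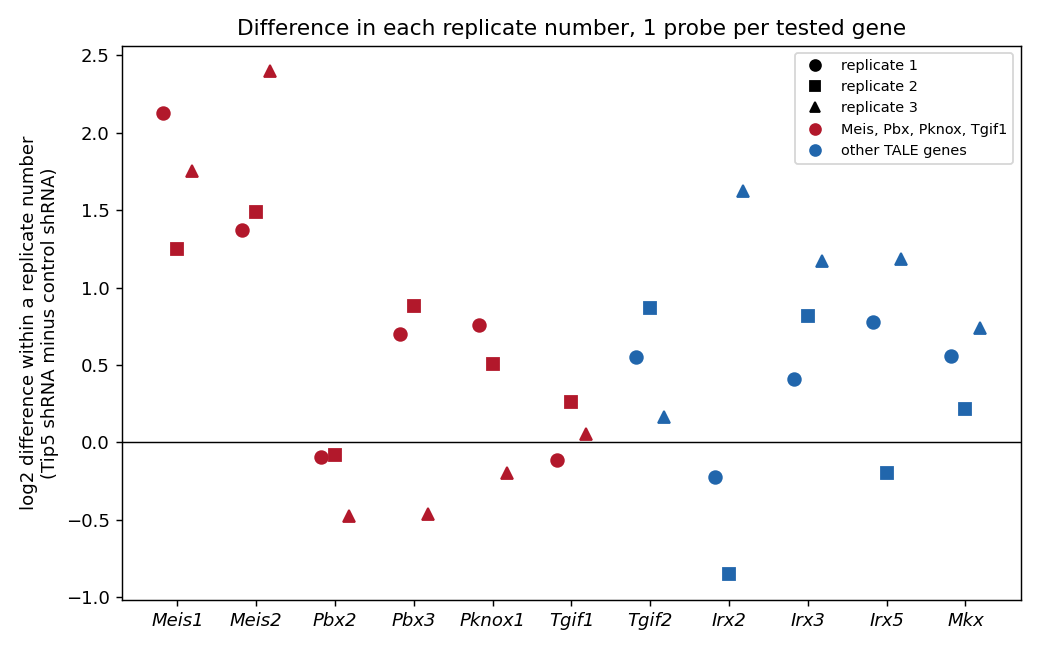
Log2 difference, knockdown minus control, within each replicate number for the 6 members and 5 other TALE genes tested, 1 probe per gene. Meis1, Meis2, Tgif2, Irx3 and Mkx are above 0 in all 3 replicate numbers, Pbx2 is below 0 in all 3, and the others fall on both sides.

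HOX genes, the DNA-binding partners of PBX and MEIS proteins, were mostly below background. Of 39 HOX cluster genes 38 had a probe and 4 were tested, Hoxa4, Hoxa13, Hoxc8 and Hoxc13, while Hoxb1 was not. In limma 0 of 4 passed with 2-group means (1 at an unadjusted p under 0.05) and 0 of 4 with the replicate block (1 at an unadjusted p under 0.05). Hoxa4 read 5.25, 5.26 and 5.40 in knockdown replicates 1, 2 and 3, and was detected on each of them. On the control arrays Hoxa4 was not detected, at 4.69, 4.58 and 4.57. It was therefore at least 1.18-fold higher in the knockdown, the mean knockdown level set against the lowest detected signal of the control arrays (limma adjusted p = 0.203, and 0.0657 with the block). Hoxa4 entered the fit only through the knockdown arrays, so these p-values too are not free of the filter. Hoxa13 differed by 0.18, Hoxc13 by 0.19 and Hoxc8 by 0.13, with limma adjusted p from 0.847 to 0.958.

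Retinoid pathway genes, which regulate MEIS and HOX genes in differentiating stem cells, showed no called change. Of 20 genes 17 had a probe and 9 were tested, 6 with a positive and 3 with a negative difference and a median of 0.05. In limma 0 passed with 2-group means (1 at an unadjusted p under 0.05) and 0 with the block (2 at an unadjusted p under 0.05). Rarg, the retinoic acid receptor gamma, differed by 0.42 (SE 0.20, limma adjusted p = 0.547), and its other probe by 0.68. Rxra, a partner of these receptors, differed by -0.43 (SE 0.25, limma adjusted p = 0.652). The cytoplasmic carriers Crabp1 and Crabp2 differed by -0.36 and 0.05. Rarb and Cyp26a1, which retinoic acid is known to induce, did not enter the fit.

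Smads and the corepressors that work with TGIF proteins were tested in 14 of 17 genes with a probe, 10 with positive and 4 with negative differences and a median of 0.18. In limma 0 passed with 2-group means (1 at an unadjusted p under 0.05), and with the replicate block 1 did (4 at an unadjusted p under 0.05), Smad9, with a lower level in the knockdown. Smad9, a Smad of the BMP branch, read 4.75, 4.94 and 4.64 in knockdown replicates 1, 2 and 3, where it was not detected, against 5.94, 6.54 and 5.74 in control replicates 1, 2 and 3, where it was detected on each array. It was at least 2.04-fold lower in the knockdown (limma adjusted p = 0.132 with 2-group means and 0.0299 with the block). Since Smad9 entered the fit only through the control arrays, the detection filter favoured such a difference and these p-values are not free of it. Smad2 and Smad4 differed by 0.17 and 0.24, Smad3 by 0.70 (SE 0.48, limma adjusted p = 0.726) and the repressor Skil by -0.03. Ski was not tested.

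Of 17 genes that textbook studies place under MEIS, PBX or PREP proteins, 15 had a probe and 7 were tested, 3 with a positive and 4 with a negative difference and a median of -0.08. In limma 0 passed with 2-group means (0 at an unadjusted p under 0.05) and 0 with the block (1 at an unadjusted p under 0.05). Trib2, a pseudokinase linked to Meis1 in leukaemia, differed by 0.37 (SE 0.35, limma adjusted p = 0.835), and Hif1a, the oxygen-responsive factor, by 0.13 (SE 0.36, limma adjusted p = 0.964). Pax6, a target of MEIS proteins in eye and brain, was detected on no array.

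By Pearson correlation over the 6 arrays, a measure that follows both the groups and the replicate 3 arrays and is given as a description, the genes most like Meis1 were Spink1, a trypsin inhibitor (r = 0.996), Polr3b, a subunit of RNA polymerase III (0.994), Ncaph2, a condensin subunit (0.993), Kbtbd4 (0.991) and Bad, a pro-apoptotic BCL2 family gene (0.989). Spink1 was also close in size: it read 11.12, 10.54 and 12.16 in knockdown replicates 1, 2 and 3, against 8.66, 9.27 and 10.59 in control replicates 1, 2 and 3. Its difference was 1.76, a description, since the likeness to Meis1 chose the gene. The genes most like Meis2 were Dbnl, an actin-binding adaptor (0.996), Olig1, a glial transcription factor (0.993), Irak3, an inhibitor of Toll-like receptor signalling (0.992), Igdcc4 (0.990) and Rsad1 (0.988). Irak3 differed by 1.61 and Olig1 by 0.39, again as a description. No gene was on both of these lists, and Meis1 and Meis2 correlated with each other at 0.952 over the same arrays.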

How the data were processed

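Expression was measured in 6 cultures of E14 cells, 3 with Tip5 shRNA and 3 with control shRNA, on 1-colour bead arrays. The main table deposited by the authors holds, per the file headers, a signal intensity and a detection p-value for every probe on every array. The values show no background subtraction or scaling. The submitters' processing notes list GenomeStudio 2011.1 and do not say for which step. A second deposited table holds the authors' processed intensity, linear, floored at 1 and scaled to means of 538.3 to 538.6. Its column medians were 14.6, 15.7 and 19.2 in knockdown replicates 1, 2 and 3 and 16.2, 16.4 and 16.6 in control replicates 1, 2 and 3. Its probes are not centred, and the choice of its scale and floor is unknown. It served only as an alternative.

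Signals were background-corrected (normexp, background inferred from detection p-values, offset 16), quantile-normalized and log2-transformed with limma 3.58.1 in R 4.3.3. Probes with detection p under 0.05 on at least 3 of 6 arrays were tested (13064 of 25697). In the probe annotation 23978 probes had 1 symbol, 0 had several and 1719 had none. Symbols were updated by Entrez identifier (23962 matched) through the GRCm38.p6 gene table. Where several probes of a gene were tested, the one with the highest mean represents it in counts of genes, and levels were not compared between probes.

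Group means were fitted by lmFit and eBayes (residual degrees of freedom 4, prior 3.30), and p-values adjusted over all 13064 probes by Benjamini-Hochberg. The fit was tested on simulated data with independent noise on each array and no effect shared by a replicate number. That test does not cover how the replicate 3 arrays affect the calls. Standard errors (SE) are moderated by that fit, while each SD is taken over 3 arrays. A probe detected on no array of one group has only a bound: the other group's mean against, per array, the lowest detected signal or the probe's own if higher. P-values set a group difference against the spread between these arrays, which may be technical in part. The number of arrays limits the precision.

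Replicate numbers come from the sample titles. Deviations from the group means correlated at 0.44, 0.52 and 0.71 for replicates 1, 2 and 3 across groups, with 0.37, 0.46 and -0.56 as the highest with another number. All were over 0.1, so the numbers were taken to pair the arrays, although replicates 1 and 2 were hardly told apart. Calls with the block rest on this pairing, and the replicate block is given where it changes a call.

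The members, the gene lists and several alternatives were chosen with earlier results of these data known. Named were all member probes, Baz2a, all other TALE genes, preset and called genes of the HOX, retinoid, Smad and target lists, and the 5 genes most correlated with Meis1 and with Meis2, leaving out predicted names. All 4 HOX genes tested are named because they are few, and this was chosen after their values were seen.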

Additional observations from a re-analysis of the deposited data

How the results depend on the processing

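Alternatives changed 1 choice at a time, apart from the block with a pair left out, and settings that left out arrays kept the normalization over all 6. No setting turned the sign of Meis1 or Meis2 (19 of 19 positive). Leaving out or weighting arrays could not turn it, since the groups did not overlap. The replicate block, the batch term and the filters leave the mean difference as it is. Only the changes of background correction, normalization or input values could have turned the sign. Leaving out 1 array gave 1.22 to 2.18 for Meis1 and 1.06 to 2.22 for Meis2, and no background correction gave the smallest values, 0.87 and 0.98. Pbx2 (ILMN_2599858) stayed between -0.39 and -0.03, Pbx3 (ILMN_2642147) between 0.08 and 0.91, Pknox1 (ILMN_2780759) between 0.12 and 0.68 and Tgif1 (ILMN_1253854) between -0.03 and 0.16, where leaving out the replicate 2 pair turned Tgif1 negative. Of the other probes, ILMN_2916489 (Pbx2) and ILMN_2767113 (Tgif1) were negative throughout, while the second probes of Pbx3 and Pknox1, ILMN_1248852 (Pbx2) and ILMN_1212717 (Tgif1) took both signs.

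The 7 genes called with 2-group means became 176 with the replicate block, 2 with no background correction, 23 with offset 50, 20 with cyclic loess, 3 with the authors' values, 0 with no filter (where limma gave 1520 genes an unadjusted p below 0.05), 4 with detection on all arrays, 898 with array weights, 433 with replicates 1 and 2 only and 398 with replicate 3 as a batch term. Leaving out 1 array gave 0 to 81, and with the block, a choice made after seeing the data, leaving out a pair gave 43, 9 and 505 for replicates 1, 2 and 3. The cause of these shifts was not tested.

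Other TALE genes had 0 calls under each of the 19 settings. HOX calls were 0, apart from 1 (Hoxa4) with array weights and 1 with the batch term. Calls among retinoid, Smad and target genes were 0 as reported and 1 with the replicate block, 2 with array weights (Smad9 and Rxra), 1 with replicates 1 and 2 only, 2 with the batch term (Smad9 and Smad3) and 0 to 1 with the block less a pair. Baz2a was lower in all 18 settings that tested it (-1.99 to -0.57) and passed with array weights (-1.81, limma adjusted p = 0.0182). Detection on all arrays left Baz2a out. A slide block was not run, since the file headers name no slide. Meis3 on most arrays, Hoxa4 in controls and Smad9 in the knockdown lay at background, where differences are compressed. Meis1 in control replicates 1 and 2 and Meis2 in control replicate 2 lay close to background.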
